A study of Culex quinquefasciatus with 12 samples.

Results

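The genes described here stayed higher in the midgut of Culex quinquefasciatus larvae at every time examined after Bin toxin. They were selected on the data themselves: for each gene the log2 ratio of the toxin-treated over the untreated signal was averaged over its spots and then over the 4 arrays of a time, and a gene was taken when that mean was 1 or more (a 2-fold ratio) at 6, 12 and 18 h, when its ratio lay above 0 on each of the 12 arrays, and when at least 1 of its spots was well above background in the toxin channel on all 12 arrays. The rule found 107 of the 19751 genes on the array. Third-instar larvae of the mosquito were starved for 3 h and given either no toxin or Bin toxin, BinA and BinB mixed in equal molar amounts, at 80 ng/ml, a dose at which nearly all larvae die in the end. In each replicate 20 larvae were exposed and only those still alive were dissected, while the labels give pools of 20 or more midguts, so how many midguts entered each toxin pool is not certain. The 4 biological replicates of each time were each hybridised as untreated RNA in Cy3 against toxin RNA in Cy5 on a custom Agilent array, so every array carries its own untreated midgut sample of the same time. The dyes were never exchanged, and a gene-specific dye effect cannot be told apart from an effect of the toxin. The 4 arrays of a time shared 1 slide and 1 scan, so time and slide cannot be told apart either.

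Bin toxin is made by the bacterium Lysinibacillus sphaericus as a pair of crystal proteins, and the toxin used here was produced in E. coli. BinB binds a receptor, an alpha-glucosidase held on the surface of midgut epithelial cells, and BinA carries the toxic activity, after which the cells swell, form vacuoles and are lost. The larval midgut digests food and also meets foreign compounds first, so its cells carry proteases, solute transporters and enzymes of detoxification such as cytochrome P450s, glutathione S-transferases and UDP-glucuronosyltransferases. Whole midguts were measured, so fewer cells of a type and less RNA per cell cannot be told apart.

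Between 72.8% and 88.5% of the spots were well above background in the untreated channel of an array, and between 75.4% and 85.1% in the toxin channel. The interquartile range of the log2 ratios over all genes was 0.497 to 0.592 on the 6 h arrays, 0.653 to 0.839 on the 12 h arrays and 0.528 to 0.674 on the 18 h arrays, so ratios were spread most widely at 12 h. The marker genes were taken by name from the study's table of changed genes, which was chosen on these samples. Midgut digestive enzymes, the markers of the dissected tissue, were well above background in the untreated channel on all 12 arrays for 70 of 71 genes. Of these 71, 10, 25 and 39 were called lower with toxin at 6, 12 and 18 h and 4, 10 and 3 higher. Over all 3780 genes of that table with a value here, 745, 1086 and 530 were called lower and 481, 693 and 412 higher. Marker counts from such a table are no independent evidence of a direction. Of 24 cuticle genes 0, 1 and 1 were called higher and 1, 0 and 0 lower, and the 4 fat body, 3 muscle, 2 blood cell and 6 sensory organ genes held 1 call of a higher ratio, in a sensory organ gene at 18 h, and lower calls in 2 fat body genes and 1 blood cell gene at 12 and 18 h and in 3 sensory organ genes at 18 h. None of the 107 genes belongs to these marker lists, and the part of a changing cell mixture in the values below was not tested.

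A mean log2 ratio of 1 or more was reached by 393 genes at 6 h (1.99% of all genes), 896 at 12 h (4.54%) and 486 at 18 h (2.46%), and by 124 genes at all times. Of these 124, 7 fell below 0 on some array and 10 more had no toxin spot well above background throughout, which left the 107. The 3 members nearest above the limit were CPIJ016374, CPIJ005745 (c3f) and CPIJ005048, with a lowest time mean of 1.00 each, and the 3 genes nearest below it that met the other conditions were CPIJ004809 (0.99), CPIJ002656 (0.99) and CPIJ010173 (0.98). At 6, 12 and 18 h the median of the members' means was 1.46, 1.76 and 1.43, beside 0.02, 0.03 and 0.00 over all genes, values that chose the members and are given only to describe them. On single arrays the median ran from 1.42 to 1.61 at 6 h, from 1.56 to 2.00 at 12 h and from 1.31 to 1.55 at 18 h, and between 82 and 105 members had a ratio of 1 or more. The fit across all genes called 703 genes (3.56%), 1668 (8.45%) and 970 (4.91%) higher with toxin at 6, 12 and 18 h, and 957 (4.85%), 1677 (8.49%) and 908 (4.6%) lower, where a call needs a log2 ratio of 0.75 or more and an adjusted p below 0.05. The members made up 106, 107 and 106 of the genes called higher, as the rule all but required.

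**Figure D1:**
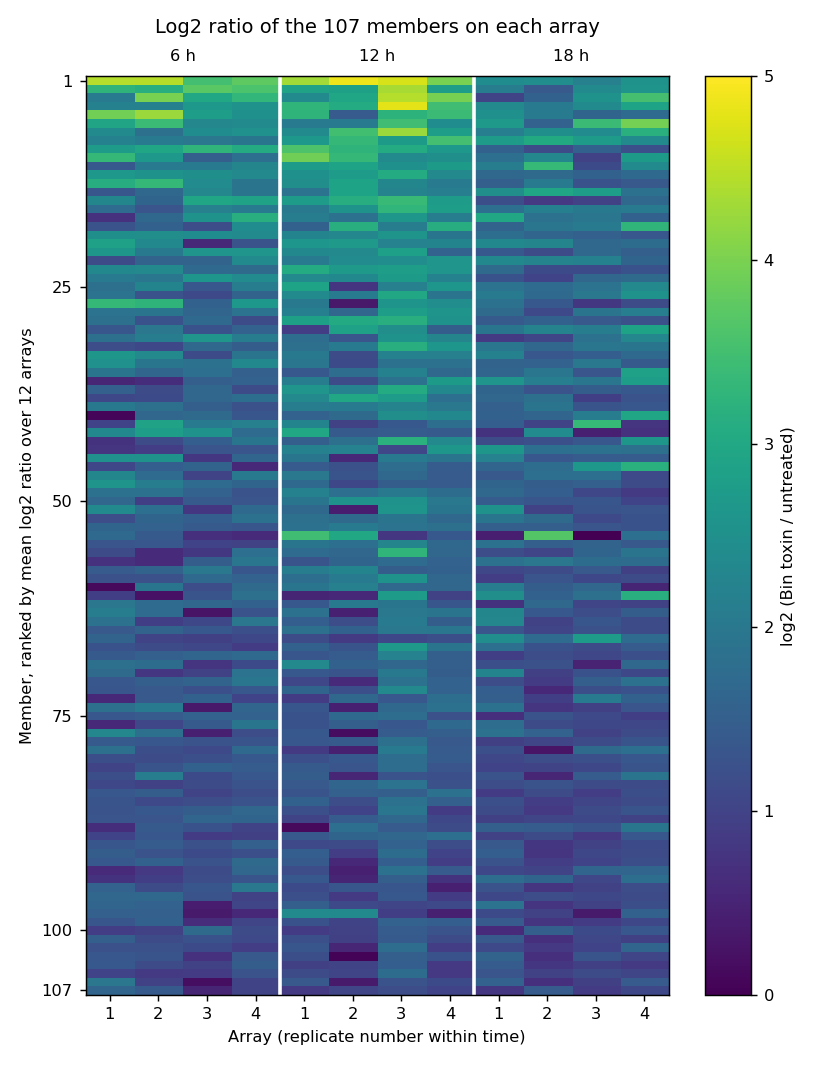
Log2 ratio of Bin toxin over untreated (colour, 0 to 5) for the 107 members (vertical axis, ranked by the mean over 12 arrays) on each array (horizontal axis, replicates 1 to 4 within 6, 12 and 18 h). All 107 have values above 0 on all 12 arrays because the rule required it; the strongest colours lie at 6 and 12 h, where the highest-ranked gene reached 4.47 and 4.88 in replicate 2.

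The study's table of changed genes, from which all names here come and which was itself chosen on these samples, held 91 of the 107 members. Of these, 52 carried a descriptive name and 39 were hypothetical proteins or had none, so that 55 members in all, with the 16 outside the table, had no described product. By the study's functional groups, in which a gene may count more than once, 34 members were of diverse function, 29 of unknown function, 9 of transport, 8 of metabolism, 5 of immunity, 4 each of proteolysis, of redox and stress, and of replication, transcription and translation, and 1 each of digestion and chemosensory reception. The 4 largest of these counts came from groups of 1259, 950, 288 and 427 genes, in that order. None of the 136 cytoskeletal and structural genes of that table was a member. In the other groups 1.22% (redox and stress) to 3.7% (chemosensory reception) of the genes were members, beside 91 of all 3780. The counts go largely with the sizes of the groups and nothing is read from them. Only 3 pairs of members had consecutive identifiers, among them glutamate transporter CPIJ000673 beside excitatory amino acid transporter 3, CPIJ000674, and nucleoside hydrolase CPIJ008181 beside ferritin CPIJ008182.

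Each gene was represented by 2 or more spots of different probe names, and these were set against each other. The rule averaged the same spots, and for a gene with 2 spots a mean of 1 or more and a gap under 2 hold the lower spot above 0, so the comparison is a description. For 93 members the spots lay within 2 log2 units of each other at every time, with a median widest gap of 0.20, and their lowest spot mean was 0.62. For the other 14 the spots disagreed: the mean over 12 arrays of the higher spot was 2.03 to 4.90, while that of the other spots was -0.25 to 0.85. In sulfakinin (CPIJ004208), a neuropeptide related to cholecystokinin, the higher spot had mean ratios of 2.44, 3.68 and 4.74 at 6, 12 and 18 h and the other spot -0.29, 0.24 and 0.00. Likewise the higher spot of CPIJ039733, which has no name, gave 3.66, 5.81 and 5.23 and the other spot 0.42, 0.30 and 0.24.

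The higher spot of all 14 was well above background on 12 arrays in the toxin channel, but in the untreated channel on 0 arrays for 11 of them and on 1 array for 3. Over the whole array 107 genes, a count that equals that of the members by coincidence, had spots over 2 units apart at some time, and in 93 of them the spot farthest from 0 was the higher with toxin. What set these spots apart was not tested. The named genes of this set are sulfakinin, glutamate receptor (CPIJ006667), transcription factor IIIB 90 kDa subunit (CPIJ008273), potassium-dependent sodium-calcium exchanger (CPIJ011949), zinc finger protein 10 (CPIJ015193), pita (CPIJ010913), roundabout (CPIJ017496) and a helicase C-terminal domain protein (CPIJ002447). Their gene-level ratios are means of spots that do not agree and are to be read with that limit.

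**Figure D2:**
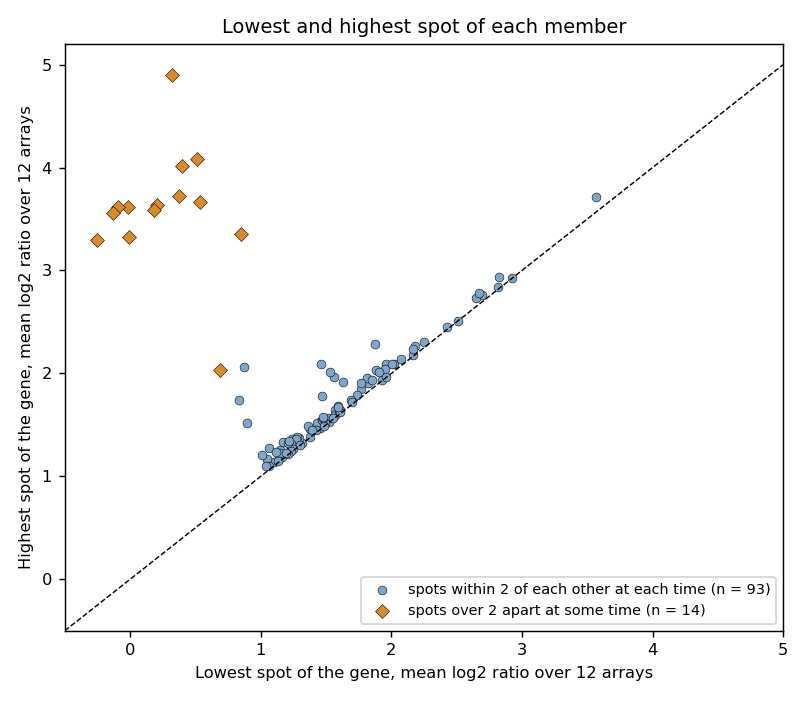
Mean log2 ratio over 12 arrays of the highest spot of each member (vertical axis) against that of its lowest spot (horizontal axis); the dashed line marks equal values. Most of the 93 members with spots within 2 units lie near the line, the widest gap among them being 1.85 at 1 time in CPIJ002009. The 14 others have higher spots of 2.03 to 4.90 beside lowest spots between -0.25 and 0.85.

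For 77 of the members the untreated channel was well above background on all 12 arrays, for 22 on some and for 8 on none, and 16 had no measured untreated signal on all 4 arrays of at least 1 time. The ratio there is only a bound, taken as the mean toxin signal over the higher of the array's lowest signal well above background and the gene's own untreated signal. Glutamate semialdehyde dehydrogenase (CPIJ013217), an enzyme of proline synthesis, had the highest bounds, at least 3.00-fold higher at 6 h and at least 4.28-fold at 12 h, and its spots agreed within 0.36. The bounds of sulfakinin came to 1.17-, 1.81- and 1.19-fold at 6, 12 and 18 h. Those of the helicase domain protein CPIJ002447 were 1.53-, 2.32- and 1.73-fold, of CPIJ007206 1.16-, 2.23- and 1.63-fold and of CPIJ008273 1.00-, 1.69- and 1.12-fold. Glutamate receptor had 1.43- and 1.28-fold at 12 and 18 h and exchanger CPIJ011949 1.44- and 1.04-fold. For pita only the 12 h bound, 1.18-fold, lay above 1, and roundabout had 1.17-fold at 12 h. In all of these but the dehydrogenase, 1 spot was well above background in the toxin channel on only 0 or 1 of the 12 arrays. The mean toxin signal takes in that spot, so these bounds are not firm lower limits. The log2 ratios given below at such times are to be read with these bounds. In the toxin channel, 5 members had a saturated spot on some array and none had all its spots saturated on all arrays of a time. The 5 were CPIJ009451, CPIJ011376, CPIJ000210, CPIJ003983 and CPIJ008182.

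The highest ratios belonged to a gene without a described product. CPIJ009451, a conserved hypothetical protein, had log2 ratios of 4.45, 4.47, 3.51 and 3.75 in replicates 1 to 4 after 6 h, 4.31, 4.88, 4.70 and 3.98 after 12 h and 2.44, 2.45, 2.18 and 2.57 after 18 h. Every 18 h value lay below every value of the earlier times. Its means were 4.04 ± 0.49, 4.47 ± 0.40 and 2.41 ± 0.16 (SD, n = 4 arrays each, as throughout), and spots of it were saturated in the toxin channel on 2, 2 and 4 arrays, so these ratios may understate it.

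Another conserved hypothetical protein, CPIJ013215, followed with 3.25, 3.16, 3.72 and 3.59 after 6 h, 2.89, 2.85, 4.35 and 2.79 after 12 h and 2.10, 1.40, 2.38 and 2.59 after 18 h. Replicate 3 stood far above the others at 12 h, and the 18 h values lay below all earlier ones. CPIJ003983, also hypothetical, had 3.93, 4.26, 2.79 and 2.50 after 6 h, 3.26, 1.43, 3.23 and 3.41 after 12 h and 2.51, 2.03, 1.62 and 1.75 after 18 h, with replicate 2 lowest by far at 12 h. Its toxin spots were all saturated on 1 array at 18 h. CPIJ019593 had 2.76, 2.95, 3.27 and 3.07, then 3.61, 3.25, 3.07 and 2.67, then 1.55, 1.14, 1.55 and 1.21, and its 18 h values did not overlap the rest. CPIJ011725 was the most even of these genes, with means of 2.51 ± 0.13, 2.67 ± 0.32 and 1.67 ± 0.08, and CPIJ007206, among the 14 genes whose spots disagreed, had 1.94 ± 0.39, 2.72 ± 0.16 and 2.23 ± 0.92.

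The named gene with the highest ratio over the 12 arrays together was cysteine-rich venom protein (CPIJ000210), a secreted protein of the CAP family. Its log2 ratios were 2.05, 4.00, 2.99 and 3.30 after 6 h, 2.37, 2.95, 4.45 and 3.97 after 12 h and 1.03, 1.54, 2.54 and 3.53 after 18 h. The replicates spread over more than 1 log2 unit at each time and the times overlapped, with means of 3.09 ± 0.81, 3.43 ± 0.94 and 2.16 ± 1.11. Toxin spots of this gene were saturated on 1 array at each time, so these ratios may understate it. The differences between its times did not pass the test (12 minus 6 h 0.35 ± 0.59 (SE, adjusted p = 0.755), 18 minus 12 h -1.27 ± 0.59 (SE, adjusted p = 0.171)). It was the only member among the 5 cysteine-rich genes of the study's table, of which 2, 3 and 2 were called higher and 1 lower at each time.

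SERAC1 (CPIJ003381), which in humans takes part in remodelling the lipid phosphatidylglycerol, had ratios of 2.20, 2.20, 2.68 and 2.54 after 6 h, 3.27, 3.07, 4.79 and 3.48 after 12 h and 2.36, 2.04, 2.40 and 2.91 after 18 h. The 12 h values lay above all of the others, and replicate 3 was the highest of these. For glutamate semialdehyde dehydrogenase the gene-level values were 2.92, 3.41, 2.31 and 2.39 after 6 h, 2.08, 2.06, 3.47 and 2.43 after 12 h and 2.70, 1.56, 3.42 and 3.96 after 18 h, fully overlapping between times.

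Detoxification genes gave 3 members. UDP-glucuronosyltransferase (CPIJ008571), which couples sugar acids to lipophilic compounds, had ratios of 2.40, 1.84, 2.43 and 2.53 after 6 h, 2.37, 3.48, 4.25 and 2.78 after 12 h and 2.14, 2.48, 2.42 and 3.18 after 18 h. These overlap between times, and the rise from 6 to 12 h of 0.92 ± 0.36 (SE, adjusted p = 0.136) did not pass the test. Cytochrome P450 4c21 (CPIJ017243), a haem enzyme that oxidises lipids and foreign compounds, had 2.29, 1.61, 2.96 and 2.89 after 6 h, 2.74, 3.11, 3.38 and 2.76 after 12 h and 1.19, 0.82, 0.97 and 1.68 after 18 h. Its 18 h values overlap the lowest 6 h value but stay below all 12 h values. Glutathione S-transferase 1-1 (CPIJ002683), which couples glutathione to reactive compounds, had 1.25, 1.15, 1.06 and 0.89 after 6 h, 1.56, 1.30, 2.68 and 1.93 after 12 h and 1.83, 1.27, 1.17 and 1.46 after 18 h.

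In both families more genes were called lower than higher with toxin. For cytochrome P450s, of the 90 genes of this kind in the study's table, 10, 11 and 3 were called higher and 14, 38 and 32 lower at 6, 12 and 18 h. For the other detoxification enzymes, of the 49 genes of this kind in the study's table, 3, 5 and 3 were called higher and 11, 19 and 14 lower at 6, 12 and 18 h. Over all 3780 genes of that table with a value here 481, 693 and 412 were called higher and 745, 1086 and 530 lower. The table was drawn up from genes found changed in these samples, so no list count taken from it, here or further on, is independent evidence of a direction.

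Of genes that handle oxygen species, iron and purines, ferritin (CPIJ008182), which stores iron, had 1.33, 1.39, 1.22 and 1.37 after 6 h, 1.61, 1.22, 2.35 and 1.56 after 12 h and 1.50, 0.55, 1.21 and 1.26 after 18 h. It was the only member among 3 iron genes, and the other 2 were called in neither direction at any time. Superoxide dismutase 2 (CPIJ000146), which removes superoxide, had means of 1.35 ± 0.80, 1.55 ± 0.74 and 1.58 ± 0.49. Uricase (CPIJ003456), which oxidises urate, had 1.61 ± 0.25, 1.28 ± 0.56 and 1.36 ± 0.43. The nucleoside hydrolase CPIJ008181 had 1.08 ± 0.68, 1.20 ± 1.06 and 2.25 ± 0.70, with wide spread at each time.

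Serine proteases gave 4 members of the list. Serine collagenase 1 (CPIJ003994) had ratios of 3.33, 2.66, 1.51 and 1.83 after 6 h, 3.92, 3.32, 2.37 and 2.49 after 12 h and 1.83, 2.31, 0.96 and 2.72 after 18 h, and its times overlapped. The gene named plasminogen (CPIJ009112) after a vertebrate protease had 2.02 ± 0.65, 1.89 ± 0.50 and 1.69 ± 0.37, serine protease CPIJ017792 had 1.88 ± 0.84, 1.63 ± 0.70 and 1.62 ± 0.40 and adhesive serine protease CPIJ007535 had 1.48 ± 0.20, 1.09 ± 0.45 and 1.1 ± 0.17. None of the 4 differed between times by the test. Among serine proteases as a whole, of the 58 genes of this kind in the study's table, 9, 11 and 8 were called higher and 5, 17 and 23 lower at 6, 12 and 18 h. Further members with protease names outside the list's words were transmembrane protease CPIJ002659 (1.46 ± 0.76, 1.34 ± 0.64 and 1.23 ± 0.50), achelase-2 CPIJ011301 (1.46 ± 0.36, 1.19 ± 0.70 and 1.26 ± 0.71) and coagulation factor VII CPIJ009142 (1.45 ± 0.46, 1.13 ± 0.41 and 1.30 ± 0.58).

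Solute transport gave 4 members and ion channels a further pair. Glutamate transporter CPIJ000673, of the family that brings glutamate into cells with sodium, had ratios of 2.07, 1.95, 2.63 and 2.41 after 6 h, 2.35, 2.33, 2.73 and 2.19 after 12 h and 1.26, 1.00, 1.64 and 1.72 after 18 h, all 18 h values lying below all earlier ones. The adjacent gene of the same family, excitatory amino acid transporter 3 (CPIJ000674), had 1.51, 1.15, 1.25 and 1.1, then 1.22, 0.95, 1.42 and 1.14, then 1.39, 0.69, 1.06 and 0.95, which overlap throughout. Sugar transporter CPIJ008946 had means of 1.77 ± 0.54, 1.60 ± 0.31 and 1.54 ± 0.35, and the sodium-calcium exchanger CPIJ011949, with disagreeing spots, 1.07 ± 0.29, 2.03 ± 0.67 and 2.04 ± 0.40. Of the ion channels, pickpocket (CPIJ006785), named after a family of sodium channels of Drosophila, had 1.84, 1.26, 1.71 and 1.14 after 6 h, 2.85, 3.06, 3.13 and 2.57 after 12 h and 1.42, 1.55, 1.40 and 1.24 after 18 h. Its 12 h values were the highest of all, without overlap. The inwardly rectifying potassium channel CPIJ017140 had 2.17 ± 0.32, 1.70 ± 0.39 and 1.64 ± 0.25. For solute transport genes as a whole, of the 114 genes of this kind in the study's table, 18, 23 and 13 were called higher and 23, 38 and 19 lower at 6, 12 and 18 h.

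Genes of glycan, lipid and amino acid metabolism were also among the members. The members included 2 genes named N-acetyl galactosaminyl transferase 6, enzymes that start the O-linked glycans of mucins: CPIJ005231 with means of 1.83 ± 0.38, 2.67 ± 0.53 and 2.02 ± 0.14 and CPIJ013573 with 1.35 ± 0.27, 2.42 ± 0.58 and 1.89 ± 0.15. In each the 12 h mean was the highest. A further 2 members were named AMP dependent ligase, enzymes that activate carboxylic acids. CPIJ015715 had 0.73, 1.15, 1.49 and 1.95 after 6 h, 1.52, 1.84, 3.20 and 2.36 after 12 h and 1.14, 1.22, 1.36 and 2.64 after 18 h, and CPIJ015310 had 1.19 ± 0.65, 1.56 ± 0.19 and 1.84 ± 0.10. Cystathionine beta-lyase (CPIJ003148), an enzyme of sulphur amino acid metabolism, had 1.27 ± 0.15, 1.29 ± 0.41 and 1.13 ± 0.30. For lipid and sterol genes, of the 69 genes of this kind in the study's table, 10, 15 and 9 were called higher and 13, 20 and 13 lower at 6, 12 and 18 h.

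Regulators and genes of nucleic acid and protein synthesis mostly stood between 1 and 2. Of the list of transcription factors 5 were members: zinc finger proteins 10 (1.61 ± 0.57, 2.48 ± 0.79 and 2.22 ± 0.72), 667 (CPIJ007855, 1.40 ± 0.15, 1.84 ± 0.20 and 1.19 ± 0.11) and 542 (CPIJ017223, 1.51 ± 0.38, 1.06 ± 0.43 and 1.05 ± 0.22), the zinc finger and SCAN domain protein 21 (CPIJ013499, 1.26 ± 0.20, 1.55 ± 0.24 and 1.03 ± 0.16) and the IIIB 90 kDa subunit (1.54 ± 0.33, 1.93 ± 0.89 and 2.29 ± 0.42). Among such factors, of the 51 genes of this kind in the study's table, 27, 33 and 22 were called higher and 2, 2 and 0 lower at 6, 12 and 18 h. This list too was taken from the genes found changed in these samples and is no independent evidence of their direction. NFAT (CPIJ019088), a transcription factor, had 2.17 ± 0.32, 1.99 ± 0.55 and 1.53 ± 0.70, and pita had 2.02 ± 1.06, 2.19 ± 0.32 and 2.10 ± 0.62. The untreated channel of NFAT was well above background on 1 array at 6 h, and that of zinc finger protein 10 on 2, 1 and 2 arrays at 6, 12 and 18 h. In pita and the IIIB subunit it was so on no array at any time.

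The eukaryotic translation initiation factor 2-alpha kinase 1 (CPIJ005884), whose vertebrate counterpart slows translation under stress, was narrow in its replicates at 1.24 ± 0.10, 1.46 ± 0.24 and 1.20 ± 0.12. 60S ribosomal protein L7 (CPIJ012743) had 1.17 ± 0.20, 1.93 ± 0.26 and 1.59 ± 0.20 and the lariat debranching enzyme (CPIJ004547), which opens excised introns, 1.49 ± 0.13, 1.92 ± 0.09 and 1.41 ± 0.13. Werner syndrome helicase (CPIJ007658) and ATPase WRNIP1 (CPIJ017857), whose human counterparts act in DNA repair, had 1.13 ± 0.13, 1.54 ± 0.29 and 1.20 ± 0.05 and 1.53 ± 0.28, 1.79 ± 0.11 and 1.51 ± 0.39. Trithorax protein ash2 (CPIJ005772), part of a complex that methylates histone H3, had 1.33 ± 0.23, 1.46 ± 0.22 and 1.11 ± 0.14, and the helicase domain protein CPIJ002447 1.81 ± 0.41, 2.29 ± 0.42 and 2.51 ± 0.48. The untreated channel of CPIJ002447 was not well above background on any array, so its ratios have only the bounds given above, with the limit stated there.

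The signalling and other named members were glutamate receptor (1.18 ± 0.48, 1.48 ± 0.23 and 2.32 ± 0.73), sulfakinin (1.07 ± 0.55, 1.96 ± 0.65 and 2.37 ± 0.39), synaptic vesicle glycoprotein 2B (CPIJ009611, 1.84 ± 0.14, 2.30 ± 0.51 and 1.72 ± 0.45) and roundabout (1.25 ± 0.81, 1.87 ± 0.25 and 1.44 ± 0.67), the first pair and roundabout with disagreeing spots. The untreated channel of roundabout was not well above background on any 12 h array. Arrestin domain-containing protein 2 (CPIJ008374) had 1.41, 1.53, 1.63 and 1.71 after 6 h, 1.34, 1.45, 2.21 and 1.52 after 12 h and 0.94, 1.18, 1.07 and 1.22 after 18 h, and was the only member of the 16 chemosensory genes of the list. WD repeat protein 59 (CPIJ010510) had 1.66 ± 0.35, 2.11 ± 0.10 and 1.53 ± 0.28, yellow (CPIJ008700) 1.37 ± 0.51, 1.76 ± 0.39 and 1.15 ± 0.50 and sushi (CPIJ006405) 1.1 ± 0.53, 2.08 ± 0.80 and 1.44 ± 0.40. The members named c3f, CPIJ005745 and CPIJ013009, had 1.49 ± 0.10, 1.50 ± 0.29 and 1.00 ± 0.26 and 1.48 ± 0.18, 1.31 ± 0.31 and 1.01 ± 0.07. No member came from the lists of heat shock and crystallin genes (20 genes), serpins (7) or sugar and hexosamine enzymes (13). The lists of ubiquitin ligases (28), small RNA factors (5), cell death genes (17) and painless channels (2) held none either. Members made up only 91 of the 3780 genes from which these lists were taken. At that share lists this small can easily hold none, so nothing is read from their absence.

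The members without a described product covered the whole range of the set. The 39 hypothetical or unnamed genes of the study's table include the strongest member as well as CPIJ016374 (1.00 ± 0.62, 1.53 ± 1.00 and 1.00 ± 0.49) and CPIJ005048 (1.00 ± 0.20, 1.20 ± 0.40 and 1.12 ± 0.15) at the limit. Consecutive genes CPIJ010309 and CPIJ010310 had 1.46 ± 0.53, 1.56 ± 0.37 and 1.45 ± 0.59 and 1.34 ± 0.55, 1.54 ± 0.33 and 1.39 ± 0.59. CPIJ005157 had the widest spread of all members at 12 and 18 h, at 1.11 ± 0.55, 2.16 ± 1.28 and 1.48 ± 1.65. Of the 16 genes outside the table, CPIJ001056 (1.76 ± 1.03, 2.45 ± 0.25 and 2.02 ± 0.33) and CPIJ009161 (1.37 ± 0.26, 2.56 ± 0.39 and 1.44 ± 0.14) had the highest means. CPIJ001056 was measured in the untreated channel on 1 array at 6 h. Over all members the SD of 4 arrays had medians of 0.35, 0.40 and 0.35 at the successive times, beside 0.21, 0.26 and 0.26 over all genes.

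Differences between times were read from the same fit. They are differences of the time means that the rule held at 1 or more, so the calls are not independent of the choice of members, and the share of members called is given beside that of all genes as a description from which nothing is read. The mean was highest at 12 h for 56 members, at 6 h for 32 and at 18 h for 19, and lowest at 18 h for 51, at 6 h for 42 and at 12 h for 14. The ratios of all genes were spread most widely at 12 h. With the arrays brought to the same spread, the members' medians were 1.69, 1.48 and 1.49 at 6, 12 and 18 h. The peak of the median thus moved from 12 to 6 h, so the time of the highest ratio depends on the processing. By the test, 22 members differed in at least 1 contrast and 85 in none. Of the 22, 6 were called higher at 12 h and then lower at 18 h, and 6 others were lower at 18 h than at both earlier times. The matching counts over all genes were not taken, so nothing is read from these counts.

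From 6 to 12 h, 9 members were called higher and none lower, 8.41% and 0% of the members, where 1.78% of all genes were called higher and 1.48% lower at 12 h. The median difference was 0.20 (quartiles -0.13 and 0.57), beside 0.00 (quartiles -0.24 and 0.26) over all genes. Pickpocket rose by 1.41 ± 0.18 on the log2 scale (SE, adjusted p = 0.0018), SERAC1 by 1.25 ± 0.32 on the log2 scale (SE, adjusted p = 0.0408), CPIJ009161 by 1.19 ± 0.19 on the log2 scale (SE, adjusted p = 0.00628) and the hypothetical gene CPIJ020318 by 1.07 ± 0.28 on the log2 scale (SE, adjusted p = 0.0406). The other 5 were N-acetyl galactosaminyl transferase 6 CPIJ013573 (difference 1.07), CPIJ039733 (1.02), CPIJ003010 (0.93), 60S ribosomal protein L7 (0.76) and CPIJ011376 (0.76). The untreated channel was well above background on all 12 arrays and no toxin spot was saturated in 5 of the 9. CPIJ039733 was measured in the untreated channel on 1 array at 6 h and none at 12 h and its spots disagreed, so its rise has no measure, and CPIJ020318 was measured there on 2 and 3 arrays and CPIJ003010 on 3 and 4. CPIJ011376 had saturated toxin spots on 3 arrays at 6 h and 1 at 12 h, and its difference is to be read with that limit. All 9 calls were lost when the arrays were brought to the same spread, which narrows the 12 h ratios, and 3 other members were then called lower at 12 h. Among the 4 largest rises, that of SERAC1 was also lost without 6 h replicate 1 (1.18), 6 h replicate 2 (1.18), 6 h replicate 3 (1.34), 6 h replicate 4 (1.29), 12 h replicate 4 (1.31), 18 h replicate 1 (1.25) and 18 h replicate 3 (1.25), and that of CPIJ020318 without 6 h replicate 1 (0.96), 6 h replicate 2 (0.97), 6 h replicate 3 (1.15), 6 h replicate 4 (1.20), 12 h replicate 1 (1.11), 12 h replicate 2 (0.90), 12 h replicate 3 (0.98) and 18 h replicate 4 (1.07). In the others, the call was lost for CPIJ013573 without 6 h replicate 1 (1.01), 6 h replicate 2 (0.98), 6 h replicate 4 (1.11) and 12 h replicate 4 (1.00), for the ribosomal protein without 6 h replicate 3 (0.71), 6 h replicate 4 (0.70) and 12 h replicate 3 (0.64) and for CPIJ011376 without 6 h replicate 1 (0.86), 6 h replicate 3 (0.65), 6 h replicate 4 (0.66), 12 h replicate 1 (0.67), 12 h replicate 2 (0.79), 12 h replicate 3 (0.76), 12 h replicate 4 (0.82), 18 h replicate 3 (0.76) and 18 h replicate 4 (0.76).

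From 12 to 18 h, 13 members were called lower and 1 higher, 12.1% and 0.935%, where 2.35% of all genes were called lower and 3.56% higher at 18 h. The median difference was -0.30 (quartiles -0.64 and 0.01), beside -0.01 (quartiles -0.27 and 0.25) over all genes. CPIJ009451 fell by 2.06 ± 0.24 on the log2 scale (SE, adjusted p = 6.41e-04), cytochrome P450 4c21 by 1.83 ± 0.29 on the log2 scale (SE, adjusted p = 0.00314), CPIJ019593 by 1.79 ± 0.20 on the log2 scale (SE, adjusted p = 4.05e-04) and pickpocket by 1.50 ± 0.18 on the log2 scale (SE, adjusted p = 6.49e-04). Of the 13 falls, 9 were in genes measured in the untreated channel on all 12 arrays with no saturated toxin spot. CPIJ009451 had saturated toxin spots on 2 arrays at 12 h and 4 at 18 h, and CPIJ011376 (-1.48) on 1 and 4, with all its spots saturated on 3 of the latter, and a saturated toxin signal lowers the ratio, so the size of these falls is uncertain. The calls of CPIJ009451, CPIJ019593, pickpocket and CPIJ011376 held under all 25 alternatives, and that of the cytochrome P450 under 24, the exception being a common spread of the arrays, where it was -1.27 with an adjusted p of 0.0834.

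Smaller falls to 18 h were called for SERAC1 (-1.23), CPIJ009161 (-1.12), CPIJ020318 (-1.06), CPIJ011725 (-1.0), glutamate transporter CPIJ000673 (-0.99), CPIJ003010 (-0.97), CPIJ011605 (-0.89) and CPIJ003787 (-0.84). The call of SERAC1 was lost without 12 h replicate 4 (-1.29), 18 h replicate 1 (-1.21), 18 h replicate 2 (-1.10) and 18 h replicate 3 (-1.22), that of CPIJ020318 without 12 h replicate 2 (-0.89), 12 h replicate 3 (-0.97), 18 h replicate 1 (-1.14), 18 h replicate 3 (-0.90) and 18 h replicate 4 (-1.01), that of CPIJ011605 without 12 h replicate 3 (-0.71) and that of CPIJ003787 without 6 h replicate 1 (-0.84), 6 h replicate 3 (-0.84), 12 h replicate 1 (-0.82), 12 h replicate 2 (-0.81), 12 h replicate 3 (-0.66), 18 h replicate 1 (-0.82), 18 h replicate 2 (-0.75) and 18 h replicate 4 (-0.87). The gene called higher was CPIJ002009, outside the study's table, with 1.17, 0.86, 1.09 and 1.20 after 12 h and 2.46, 1.74, 2.74 and 1.74 after 18 h, a difference of 1.09 ± 0.23 (SE, adjusted p = 0.0122). Its untreated channel was not well above background on any 18 h array, so the size of the rise has no measure. The bound there came to 1.41-fold, but 1 of its spots was well above background in the toxin channel on only 5 arrays.

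Between 6 and 18 h, 9 members were called lower and 3 higher, 8.41% and 2.8%, where 2.49% of all genes were called lower and 3.65% higher at 18 h. The median difference was -0.08 (quartiles -0.35 and 0.22), beside -0.01 (quartiles -0.22 and 0.23) over all genes. CPIJ019593 fell by 1.65 ± 0.20 on the log2 scale (SE, adjusted p = 3.46e-04), CPIJ009451 by 1.63 ± 0.24 on the log2 scale (SE, adjusted p = 0.00143), CPIJ013215 by 1.31 ± 0.35 on the log2 scale (SE, adjusted p = 0.0309) and cytochrome P450 4c21 by 1.27 ± 0.29 on the log2 scale (SE, adjusted p = 0.0164). The calls of CPIJ019593 and of CPIJ009451, saturated in part, held under all 25 alternatives, while that of CPIJ013215 was lost without 6 h replicate 1 (-1.37), 6 h replicate 2 (-1.40), 6 h replicate 3 (-1.21), 6 h replicate 4 (-1.26), 18 h replicate 1 (-1.31) and 18 h replicate 2 (-1.07) and that of the cytochrome P450 without 6 h replicate 3 (-1.10).

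The other 5 falls were in CPIJ002025 (-1.14), CPIJ003787 (-1.04), glutamate transporter CPIJ000673 (-0.86), CPIJ009945 (-0.85) and CPIJ011725 (-0.84). The call of CPIJ002025 was lost without 6 h replicate 1 (-1.0), 6 h replicate 2 (-0.93), 18 h replicate 1 (-1.13), 18 h replicate 3 (-1.04) and 18 h replicate 4 (-1.09), that of CPIJ003787 without 6 h replicate 3 (-1.0) and that of the glutamate transporter without 6 h replicate 3 (-0.73), 18 h replicate 1 (-0.81) and 18 h replicate 2 (-0.72). Sulfakinin (1.30 ± 0.34 (SE, adjusted p = 0.0303)), glutamate receptor (1.14 ± 0.33 (SE, adjusted p = 0.0455)) and CPIJ002009 (1.01 ± 0.23 (SE, adjusted p = 0.0157)) were the 3 called higher. All 3 had an untreated channel that was not well above background on any array at 18 h, and at 6 h on 0 arrays for sulfakinin and 1 for each of the others, so none of these rises is measured. The bounds of sulfakinin came to 1.17-fold at 6 h and 1.19-fold at 18 h, with the limit given above. In sulfakinin and the receptor only 1 of the spots was high. The spots of CPIJ002009 also differed, with 1.57, 1.52 and 3.10 at 6, 12 and 18 h in 1 spot and 0.75, 0.63 and 1.25 in the other. The call of sulfakinin was lost without 6 h replicate 1 (1.12), 6 h replicate 2 (1.16), 18 h replicate 1 (1.22) and 18 h replicate 4 (1.16), that of CPIJ002009 without 6 h replicate 2 (0.97) and 6 h replicate 3 (0.94), and that of the receptor without 6 h replicate 1 (1.1), 6 h replicate 2 (1.25), 6 h replicate 3 (1.28), 6 h replicate 4 (0.93), 12 h replicate 1 (1.14), 12 h replicate 2 (1.14), 12 h replicate 3 (1.14), 12 h replicate 4 (1.14), 18 h replicate 3 (1.02) and 18 h replicate 4 (0.85).

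**Figure D3:**
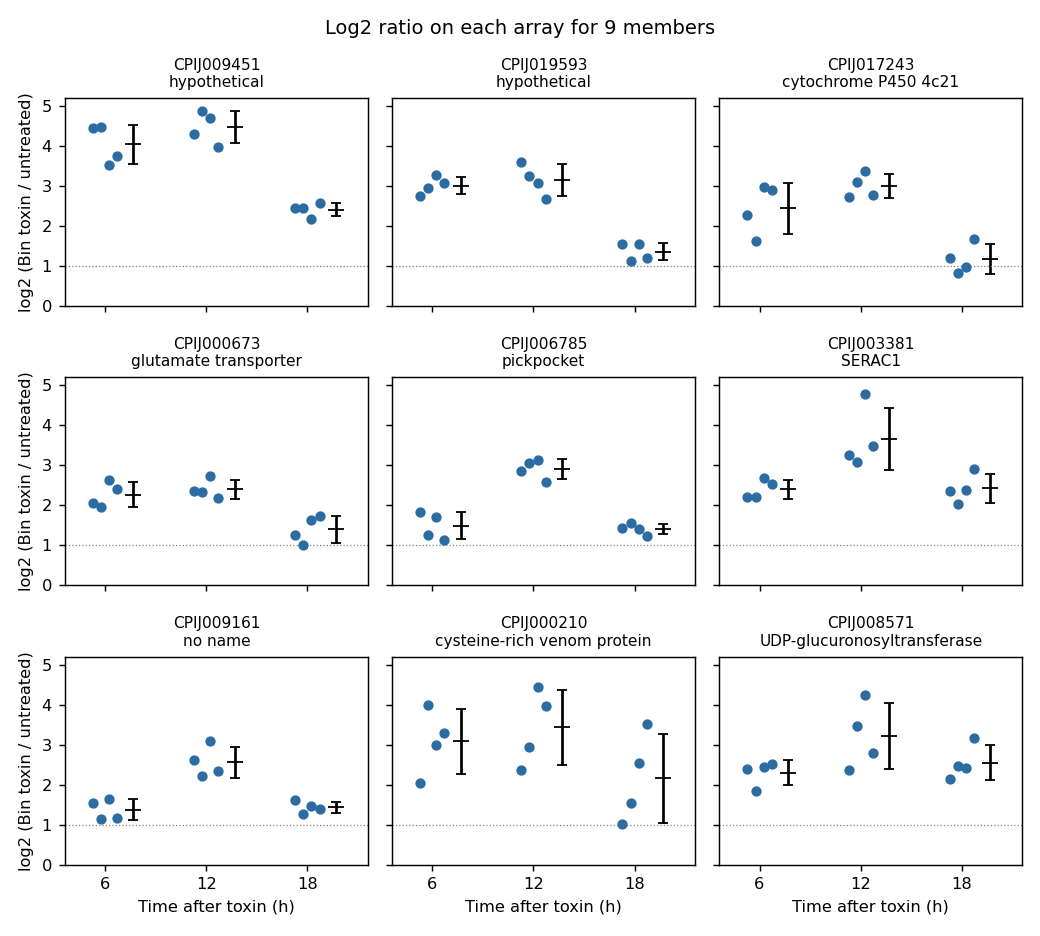
Log2 ratio of Bin toxin over untreated (vertical axis) at 6, 12 and 18 h (horizontal axis) for 9 members; points are the 4 arrays of a time, the bars beside them the mean and SD, and the dotted line the limit of 1. CPIJ009451, CPIJ019593 and glutamate transporter CPIJ000673 have all 18 h points below all earlier ones, pickpocket and CPIJ009161 peak at 12 h, and cysteine-rich venom protein overlaps at all times.

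To see which channel moved in the members that fell, both were read after the arrays were brought to the same distribution of average signal. The log2 ratio is the toxin level minus the untreated level, and these members were called on that ratio. A rise of the untreated level against the toxin level was thus fixed by the choice, and the levels are given as a description. In the 13 members called lower at 18 h than at 12 h, the untreated level was higher at 18 h in all 13, by a median of 1.42 log2 units (0.80 to 2.13), while the toxin level moved by a median of 0.06 (-0.17 to 0.55). In the 9 called lower at 18 h than at 6 h, the untreated level rose in all 9 by a median of 1.35 and the toxin level moved by a median of 0.35. The untreated level of CPIJ009451 was 12.66 ± 0.34, 12.86 ± 0.31 and 14.89 ± 0.05 at 6, 12 and 18 h and its toxin level 16.70 ± 0.81, 17.33 ± 0.47 and 17.30 ± 0.17, the toxin channel being saturated in part. For CPIJ019593 the untreated level was 12.61 ± 0.06, 12.22 ± 0.27 and 14.35 ± 0.12 and the toxin level 15.62 ± 0.18, 15.37 ± 0.25 and 15.71 ± 0.15. In CPIJ019593 the change from 12 to 18 h thus stood mostly in the untreated channel, while for CPIJ009451 the saturated toxin channel cannot show whether its level changed. In the 9 of the 13 with a measured untreated channel on all 12 arrays and no saturated toxin spot, the untreated level rose in all 9 by a median of 1.42 and the toxin level moved by a median of 0.07.

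Cytochrome P450 4c21 had an untreated level of 11.25 ± 0.27, 10.63 ± 0.19 and 12.29 ± 0.03 and a toxin level of 13.69 ± 0.89, 13.63 ± 0.38 and 13.46 ± 0.40. Pickpocket had an untreated level of 11.46 ± 0.13, 11.24 ± 0.36 and 12.66 ± 0.04 and a toxin level of 12.95 ± 0.35, 14.15 ± 0.49 and 14.07 ± 0.11, so its rise to 12 h stood in the toxin channel and its fall to 18 h in the untreated one. In the 9 members called higher at 12 h than at 6 h, the toxin level was higher in all 9 by a median of 0.84 and the untreated level moved by a median of -0.34, and the same medians held in the 5 fully measured ones. Over all 107 members the untreated level was higher at 18 h than at 12 h in 92, with a median of 0.59, against 10147 of 19751 genes with a median of 0.01. For the 77 members measured in both channels on all 12 arrays it was higher in 73, with a median of 0.77, against 7291 of 14229 such genes. The members were chosen on the ratio of these same channels at both times, so their counts beside all genes are a description. The untreated larvae of the 3 times were on different slides, so these shifts between times cannot be told apart from the slide.

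**Figure D4:**
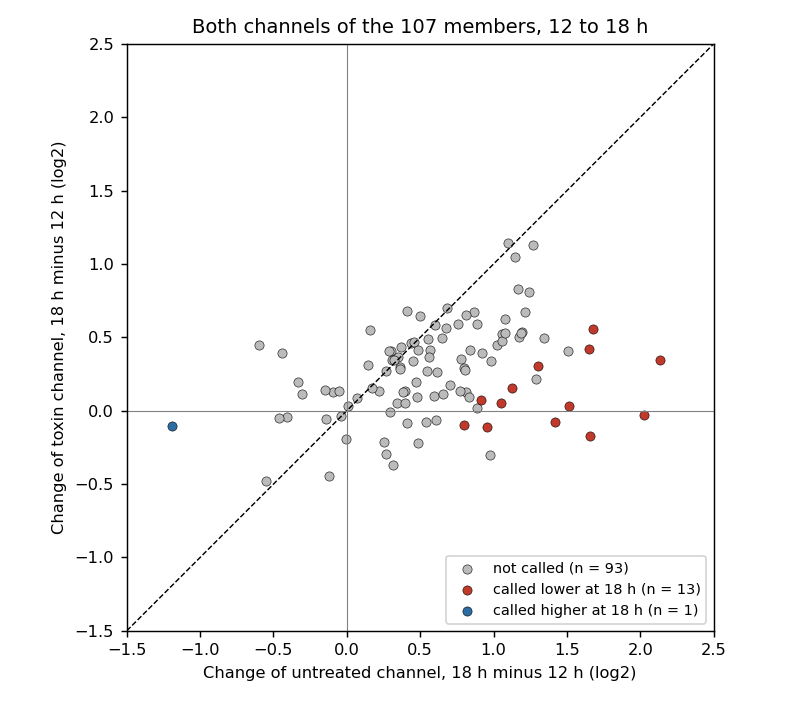
Change of the toxin channel (vertical axis) against change of the untreated channel (horizontal axis) from 12 to 18 h, in log2 units, for the 107 members; the dashed line marks an unchanged ratio. The 13 members called lower at 18 h lie to the right, with untreated levels higher by 0.80 to 2.13 and toxin levels changed by -0.17 to 0.55, with toxin spots of CPIJ009451 and CPIJ011376 saturated on some arrays, and CPIJ002009, the 1 called higher, lies at the left.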

How the data were processed

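The arrays held 45220 spots, of which 1417 control spots were left out, and the other 43803 named 19751 genes with 2 to 6 spots each. Per the file headers, the intensity values that the authors deposited came from Agilent Feature Extraction 11.5.1.1, which subtracted the background and normalized the dyes, and marks per spot for background, saturation and uneven pixels were used as given. The deposited table holds log2 ratios that the authors made with limma's background correction and loess, and it served as an alternative. The log2 ratio of toxin over untreated was taken from the processed intensities, the scale of the rule, and averaged over the spots of a gene.

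A mean for each time was fitted to all 12 arrays with limma 3.58.1 (lmFit and eBayes, 9 residual degrees of freedom) in R 4.3.3. Differences between times were called at a Benjamini-Hochberg adjusted p under 0.05 over all genes and a log2 difference of at least 0.75. No test of toxin against untreated is given for the members, which were chosen by that ratio. Channel levels were read after quantile normalization of the average signal (Aquantile). The pipeline was tested on simulated data. P-values rest on the spread between the 4 replicates of a time, pooled over all times and moderated across genes. The replicates of a time shared 1 slide, so this spread holds no variation between slides.

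The members and the gene lists were chosen with earlier results of these data known. Named by rule were the 12 highest members, the 4 largest called differences in each direction of a contrast, up to 4 members of each list and those next to the limit; the study's main table held no member. All other members with a described name are given with their means. The alternatives were other background corrections and normalizations, outlier spots left out, the brightest probe, other thresholds, the times compared alone, an intensity trend, a dim filter, a replicate block and each array left out. Gene names are those of the study's table. Probe and gene sequences were not used here.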

Additional observations from a re-analysis of the deposited data

Results flagged for a closer look

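Among the 38 members named by the rule, 117 groups of 4 arrays (with the medians over all members) were examined for an array far from the other 3, and 7 held such an array, where chance gives about 1 group in 20. They were CPIJ013215 at 12 h (replicate 3 at 4.35, the others 2.79 to 2.89), CPIJ003983 at 12 h (replicate 2 at 1.43, the others 3.23 to 3.41), plasminogen CPIJ009112 at 12 h (replicate 2 at 1.14, the others 2.03 to 2.20), AMP dependent ligase CPIJ015715 at 18 h (replicate 4 at 2.64, the others 1.14 to 1.36), potassium-dependent sodium-calcium exchanger CPIJ011949 at 18 h (replicate 1 at 2.64, the others 1.83 to 1.87), serine protease CPIJ017792 at 12 h (replicate 2 at 0.59, the others 1.93 to 2.08) and serine protease CPIJ017792 at 18 h (replicate 1 at 2.21, the others 1.36 to 1.45). In 3 of these the array apart was 12 h replicate 2.

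A further 35 differences between times, in 22 members, passed the test across all genes, and their cause was not tested. Those of CPIJ002009, CPIJ004208, CPIJ006667 and CPIJ039733 stand on an untreated channel mostly not well above background, and those of CPIJ009451 and CPIJ011376 on toxin spots saturated in part. From 6 to 12 h the log2 ratio was higher at 12 h by 1.25 in CPIJ003381, 1.02 in CPIJ039733, 0.76 in CPIJ011376, 1.41 in CPIJ006785, 1.07 in CPIJ013573, 1.19 in CPIJ009161, 1.07 in CPIJ020318, 0.93 in CPIJ003010 and 0.76 in CPIJ012743. From 12 to 18 h it changed by -2.06 in CPIJ009451, -1.23 in CPIJ003381, -1.79 in CPIJ019593, -1.0 in CPIJ011725, -1.83 in CPIJ017243, -0.84 in CPIJ003787, -1.48 in CPIJ011376, -0.99 in CPIJ000673, -1.50 in CPIJ006785, -1.12 in CPIJ009161, -1.06 in CPIJ020318, -0.97 in CPIJ003010, -0.89 in CPIJ011605 and 1.09 in CPIJ002009. From 6 to 18 h it changed by -1.63 in CPIJ009451, -1.31 in CPIJ013215, -1.65 in CPIJ019593, -0.84 in CPIJ011725, -1.14 in CPIJ002025, -1.27 in CPIJ017243, -0.85 in CPIJ009945, -1.04 in CPIJ003787, -0.86 in CPIJ000673, 1.30 in CPIJ004208, 1.14 in CPIJ006667 and 1.01 in CPIJ002009.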

How the results depend on the processing

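The rule found 62 genes (58 of the 107) with normexp background correction fitted without spots of uneven local background and loess, 54 (48) with normexp fitted on all spots, 56 (50) in the deposited log ratios and 182 (77) with plain background subtraction and median centring, and 96 to 116 when an array was left out. All 107 kept a mean ratio above 0 at each time under each setting but plain subtraction with median centring, where 105, 105 and 102 did. Without members whose spots lay over 2 apart it found 93, and with the untreated channel measured on all 12 arrays 77, a pair of settings chosen after seeing the data.

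The 9 members that differed between 12 and 6 h became 2 with normexp on all spots, 3 in the deposited ratios and 3 with arrays brought to the same spread (0 higher and 3 lower, none of the 9), and 5 to 9 without an array, 5 each without 6 h replicates 1, 3 and 4. The 14 between 18 and 12 h became 7 with normexp on all spots, 7 in the deposited ratios, 8 with plain subtraction and median centring, 5 with a common spread and 9 at a difference of at least 1, and 12 to 15 without an array. The 12 between 18 and 6 h became 4 with normexp on all spots and 5 in the deposited ratios, and 7 to 13 without an array, 7 without 6 h replicate 2. Without members whose spots disagreed the counts were 8, 14 and 10, and 5, 9 and 8 with members that had a dim untreated or a saturated toxin spot left out, also chosen after seeing the data. The sign turned for the mean of CPIJ008273 at 18 h (-0.45) and for CPIJ002009 between 18 and 12 h (-0.26) and 18 and 6 h (-0.25) with plain subtraction and median centring, and for CPIJ011376 between 12 and 6 h with a common spread (-0.024). Of 35 called differences, 6 held under all 25 alternatives. The cause of these shifts was not tested, with 4 arrays a time as the limit of precision.

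Replicate numbers are shared between times but the labels do not say that they mark a shared batch, and arrays of the same number did not always deviate together (correlations -0.14 to 0.37 over 12 pairs, the best match having its own number in 5 of 24 cases). With the replicate number as a block, 9, 16 and 11 members differed between 12 and 6 h, 18 and 12 h, and 18 and 6 h. These held 33 of the 35 called differences, those of CPIJ020318 between 12 and 6 h (adjusted p = 0.0608) and of glutamate receptor CPIJ006667 between 18 and 6 h (adjusted p = 0.0506) being lost.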
